A study of Mus musculus with 135 samples.

Results

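Hippocampal RNA of Townes sickle (SS) mice that had been through repeat social defeat (RSD) while drinking minocycline was compared with that of SS mice that had neither. The libraries were chosen from the labels: hippocampus samples of disease state SS, either RSD with treatment Yes or Ctrl with treatment No, and only of mice of one of the number series that the sample titles show, so that both groups come from the same series. This gave 17 libraries, 12 of SS + RSD + minocycline mice (called treated below) and 5 of SS mice (called untreated), out of 66 hippocampus libraries and 134 libraries of both tissues. All mice were males, about 6 months old, and every one of them carries the human sickle globin genes in place of the mouse globin genes, so nothing in this comparison separates sickle from non-sickle blood. In RSD an aggressive male intruder is placed each day in the home cage of a group of resident males. Minocycline was given in the drinking water from the day before the first session until the last one, and behaviour was tested before the tissue was taken. The groups therefore differ in RSD and in minocycline at once, and the effects of stress and drug cannot be told apart here. Residents of one cage met the same intruder, and cage membership was not used here.

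Minocycline is a tetracycline antibiotic that enters the brain and is widely used in rodents to dampen the activation of microglia, the resident immune cells of the brain. Social defeat is known in mice for anxiety-like behaviour, activation of the stress hormone axis and recruitment of immune cells to the brain. The hippocampus is a region for memory of places and contexts, it is one of the few places of the adult brain where neurons are still born, and it is rich in receptors for stress hormones.

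Reads on genes ranged from 19.9 to 68.7 M in treated libraries (median 39.8 M) and from 37.6 to 65.2 M in untreated libraries (median 57.8 M, with M for 1e6 reads). Prox1, C1ql2 and Fibcd1, genes of dentate granule cells and CA1 neurons, were higher in hippocampus than in cortex in 17 of 17 mice with both tissues, and Wfs1, another gene of CA1 neurons, in 12 of 17. Alas2, the red cell enzyme of heme synthesis, lay between 39.3 and 112 CPM (reads of the gene per 1e6 reads on genes) in the 17 libraries against a median of 3.16 CPM in the AA mice, which carry normal human globin. A pair of untreated and a set of treated libraries stood apart. Untreated mice 1 and 2 had 29.1% and 27.3% of their reads unmapped (3.07 to 16.4% in the others) and 0.389% and 0.35% of gene reads on processed pseudogenes (0.0993 to 0.159% in the others). They also had the smallest shares of reads with several places, 3.2% and 3.3% (4.13 to 9.51% in the others). Treated mice 9 to 12, whose columns of the count table are numbered above 50, had 4.56 to 5.77% of reads outside annotated genes (7.6 to 24% in the others). In a principal component analysis, the first component (31.9% of the variance) placed these 4 libraries between 61 and 72.4 and every other library at -0.637 or below. The second component (12.3%) placed untreated mice 1 and 2 at -56.7 and -49.7 and every other library at -23.6 or above. Where leaving out these libraries changed a count or a value by much, the value without them is given beside it.

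No gene passed the test in the comparison of treated with untreated hippocampus. Counts were scaled by the trimmed mean of M values and tested with edgeR's quasi-likelihood test, and every adjusted p of this comparison is its Benjamini-Hochberg value over all 18993 genes tested, with 0.05 as the threshold. Of these genes, 0 (percent called 0%) passed, and the smallest adjusted p was 0.0511. At an unadjusted p under 0.05 there were 1571 genes (8.27% of those tested), of which 761 were higher in treated mice (4.01%) and 810 lower (4.26%). DESeq2 called 171 genes (0.9%) and edgeR's likelihood-ratio test 174 (0.916%) in the same libraries. Of the DESeq2 calls 33 were higher in treated mice, 29 of them protein-coding genes, and 138 lower, 25 of them protein-coding. The higher ones include Mog, Mbp, Mobp, Eomes, Tubb3, Arsg, Rab3b, Kcnip1 and Nppc, described below (DESeq2 adjusted p 0.00292 to 0.0481). The standard error of a log2 fold change had a median of 0.163 (10th to 90th percentile 0.0864 to 0.43), beside a median absolute log2 fold change of 0.15, so most single differences were of the size of their error. The values below are given with the unadjusted p, which is read against these percentages and is not a call.

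Large lower values of mitochondrial genes rested on untreated mice 1 and 2. Among genes with a proper symbol (no Gm number or Rik name) and a mean log2 CPM of 1 or more, the lower ones of smallest p were mt-Nd4l, mt-Co3, mt-Atp6, Ranbp3l and mt-Nd3. Mt-Nd4l encodes a small subunit of respiratory complex I (chrM:9877-10173, plus strand, GRCm39). Its level was 38.9, 36.7, 1.98, 1.3 and 1.93 CPM in untreated mice 1 to 5, and 0.97 to 2.66 CPM (median 2.13) in the treated mice. Untreated mice 1 and 2 lay far above all other libraries, and untreated mice 3 to 5 lay inside the treated range. The log2 fold change of mt-Nd4l was -3.02 (SE 0.565, adjusted p = 0.0511) with all 17 libraries and 0.19 (p = 0.494) without those 2.

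The same held for mt-Atp8 and mt-Atp6 (subunits of the ATP synthase), mt-Co2 and mt-Co3 (subunits of cytochrome c oxidase) and mt-Nd3 (complex I). Their log2 fold changes were -4.55, -2.4, -1.98, -2.23 and -2.55 with all libraries, and -0.03, 0.11, 0.23, 0.05 and -0.14 without untreated mice 1 and 2. The other 7 protein-coding mitochondrial genes had log2 fold changes of 0.22 to 0.57, and mt-Nd4 (0.4, p = 0.0497) was the one of smallest p. These 6 genes are those whose sequence also exists whole or almost whole, and unchanged, in the nuclear genome. A segment of chromosome 1 (chr1:24650616-24655269, minus strand) is 99.9% identical to bases 6390 to 11042 of the mitochondrial genome, and 98.9 to 100% of the 85-base windows (the read length) of these 6 genes occur unchanged in the nuclear genome, against 0 to 61.2% for the other 7. A read that fits more than one place was left out of the gene counts, so the CPM of these 6 genes are uncertain. An 85-base window of mt-Nd4l (chrM:9977-10061, plus strand, read from GRCm39) shows such a stretch, in lower case throughout because it has no difference to mark. It is identical to chr1:24651597-24651681 (minus strand).
mt-Nd4l: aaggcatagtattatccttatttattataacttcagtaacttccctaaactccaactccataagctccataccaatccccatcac

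**Figure D1:**
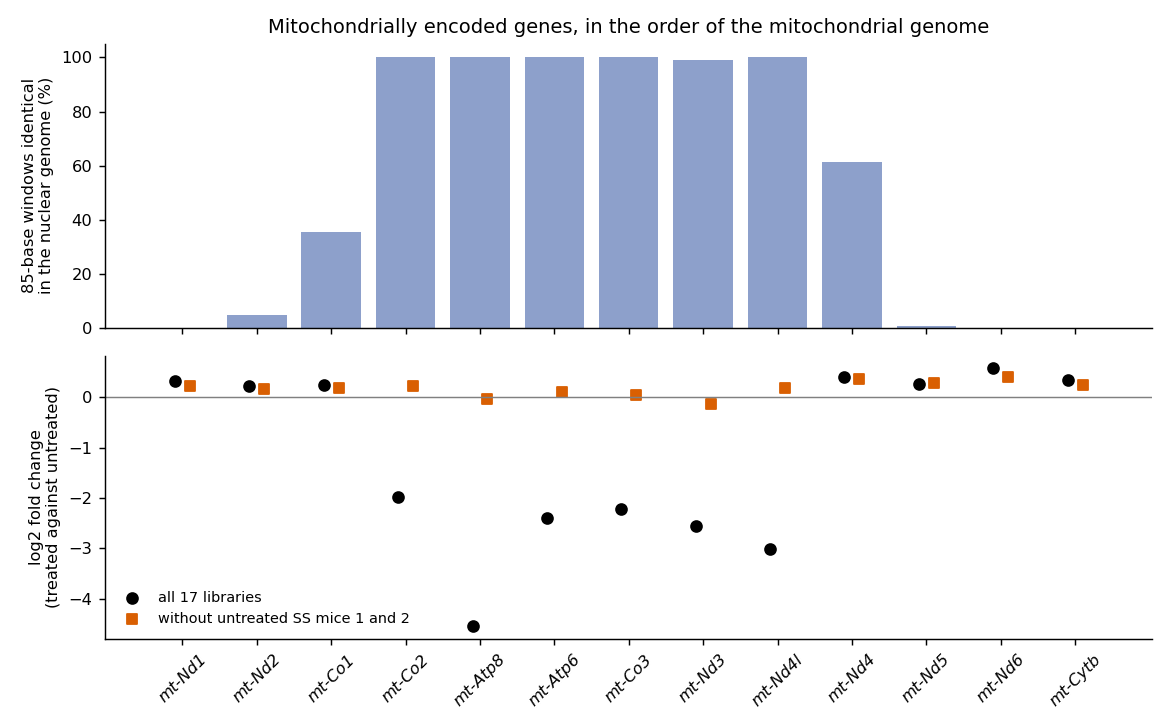
Top, percent of 85-base windows of each mitochondrial protein-coding gene that occur unchanged in the nuclear genome. Bottom, log2 fold change of treated against untreated hippocampus with all 17 libraries and without untreated mice 1 and 2. The 6 genes with 98.9 to 100% of windows repeated lie between -4.55 and -1.98 with all libraries and between -0.14 and 0.23 without the 2 libraries, while the others differ little between both sets.

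Untreated mice 1 and 2 also carried much more signal on Gm13340, an unprocessed pseudogene on chr2:22478115-22479659 (minus strand) that lies in a 3260-base alignment to the mitochondrial genome with 97.4% identity. Its level was 710, 642, 16.2, 14.1 and 14 CPM in the untreated mice and 13.1 to 28.5 CPM (median 18) in the treated mice. The start of the pseudogene is shown beside the start of mt-Co1 (cytochrome c oxidase subunit I), because a read of this stretch can be placed only by the bases that differ. Capitals mark the bases that differ, C54A and A60G, with positions counted from 1 at the 5′ end of the window, mt-Co1 first. The windows are chrM:5328-5412 (plus strand) and chr2:22479575-22479659 (minus strand).
mt-Co1: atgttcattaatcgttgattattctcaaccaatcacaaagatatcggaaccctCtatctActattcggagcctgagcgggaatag
Gm13340: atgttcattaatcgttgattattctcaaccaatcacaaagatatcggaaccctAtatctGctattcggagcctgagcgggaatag

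The pattern was not particular to these mice. Gm13340 was above 4 times the median of all hippocampus libraries in 2 of the 17 libraries (647 to 718 CPM before scaling, the rest 12.3 to 27.1) and in 12 of the other 47 (648 to 1180 CPM, the rest 13.2 to 36.8), including 2 of 8 untreated AA mice and 0 of 15 AA + RSD + minocycline mice. Mt-Nd4l was high in the same numbers of libraries. In the cortex, Gm13340 was 18 to 18.3 CPM in untreated mice 1 and 2, inside the range of the others (8.68 to 25.4). Within the hippocampus, 141 genes were above 4 times every other of the 17 libraries in both untreated mice 1 and 2, of which 125 are processed pseudogenes and 12 protein-coding genes, whereas processed pseudogenes were 785 of the 18993 genes tested. These 141 held 112 of the 138 genes that DESeq2 called lower in treated mice (81.2% of those calls and 79.4% of the 141). What set these 2 libraries apart was not tested.

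Genes of myelin were higher in treated mice, in 11 of 12 of them for most members. Of 16 genes of myelin and oligodendrocytes, the glia that wrap axons, 13 were higher at p under 0.05 and 0 lower, beside 4.01% and 4.26% of all genes, with a median log2 fold change of 0.46 (0.01 over all genes). None passed the adjusted threshold. Mbp, the myelin basic protein, was 1800, 1900, 1990, 1860 and 1800 CPM in the untreated mice and 1340 to 4280 CPM (median 2800) in the treated mice, or 1870 ± 78.7 (SD, n = 5) against 3000 ± 847 CPM (SD, n = 12). The untreated mice were close together and the treated mice spread widely, with treated mouse 2 below every untreated mouse and the other 11 above every untreated mouse. The log2 fold change of Mbp was 0.68 (SE 0.192, p = 0.00211, adjusted p = 0.21).

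Mobp, a myelin-associated basic protein, was 468, 512, 588, 505 and 614 CPM untreated and 407 to 1350 CPM (median 900) treated (log2 fold change 0.74, SE 0.213, adjusted p = 0.229). Mog, a glycoprotein of the outer myelin surface, was 38, 38.6, 41.5, 36.6 and 38.9 CPM untreated and 31.5 to 72.8 CPM (median 56.9) treated (log2 fold change 0.58, SE 0.155, adjusted p = 0.166). In both genes 11 of 12 treated mice lay above the untreated median. Of the exonic bases of Mog, 64.6% overlap Zfp57 on the opposite strand, and the strand setting of the counts is not given in the sources used here.

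The size of the difference varied among the members. Opalin (0.73), Ermn (0.54), Mal (0.54), Cnp (0.48), Cldn11 (0.46) and Mag (0.45), all genes of mature oligodendrocytes or myelin, had log2 fold changes of this order. The transcription factors Olig2 (0.37, p = 0.00226) and Sox10 (0.33, p = 0.0358), which are shared by precursors and mature cells, had smaller ones. Pdgfra and Cspg4, the markers of oligodendrocyte precursors, had log2 fold changes of 0.01 (SE 0.0926) and -0.18 (SE 0.181), and Pdgfra was 68.9, 73.4, 77.1, 55.4 and 73.7 CPM untreated against 62 to 90 CPM (median 67.7) treated, which overlap. Trf, transferrin, which oligodendrocytes of the brain make, was 158 to 202 CPM untreated and 128 to 326 CPM treated (log2 fold change 0.48, p = 0.0083).

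**Figure D2:**
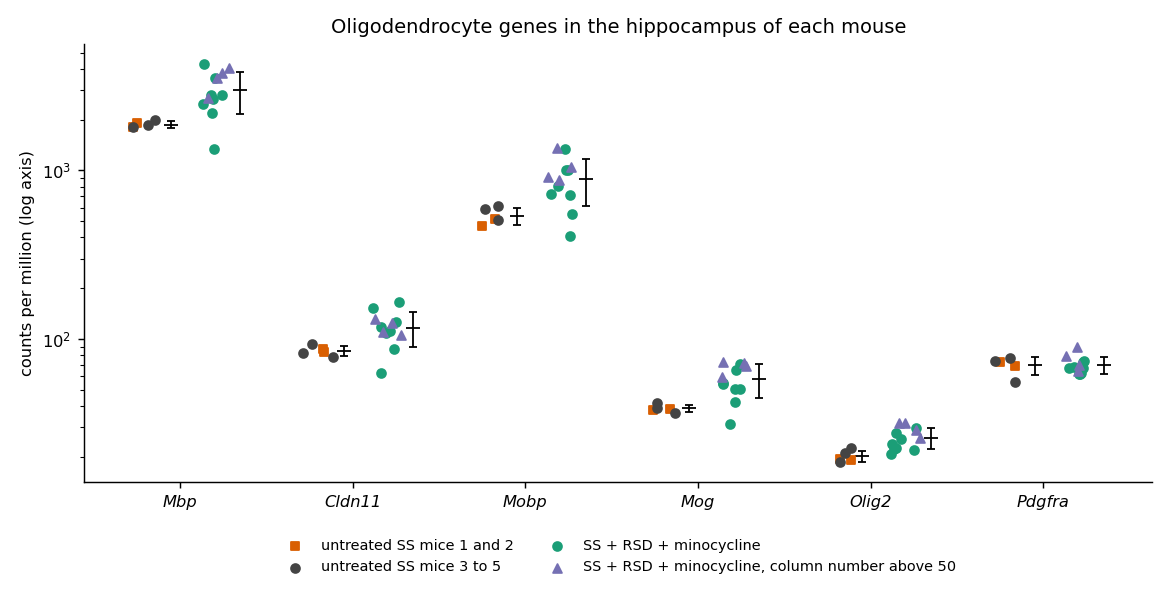
CPM (log axis) of Mbp, Cldn11, Mobp, Mog, Olig2 and Pdgfra in each hippocampus library. Orange squares are untreated mice 1 and 2, grey circles untreated mice 3 to 5, green circles treated mice 1 to 8 and purple triangles treated mice 9 to 12, with bars for mean ± SD. Mbp of the untreated mice lies between 1800 and 1990 CPM and that of the treated mice between 1340 and 4280 CPM, while Pdgfra overlaps.

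Without the libraries that stood apart, fewer members of the myelin list were at p under 0.05, with medians from 0.38 to 0.5. Without untreated mice 1 and 2, 10 of 16 members were higher at p under 0.05 (median 0.5, with 3.08% of all genes at that p, 1.5% higher and 1.58% lower). Without treated mice 9 to 12 it was 10 of 16 (median 0.38, with 6.37% of all genes, 3.11% higher and 3.26% lower), and without both sets 5 of 16 (median 0.38, with 3.42% of all genes, 1.71% higher and 1.7% lower). The mean log2 level of the list relative to the untreated mean was -0.07 to 0.05 in the untreated mice and -0.27 to 0.66 in the treated mice, with treated mice 3, 7 and 10 at 0.66. Treated mouse 3 also had the highest level of the neocortex list (1.47, other libraries -0.31 to 0.58) and the lowest of the CA3 and CA2 list (-1.01, others -0.17 to 0.4). The same library held the highest value of Pvalb, Egr1, Cplx1, Nppc and Pcp4l1, which are given below. The part of dissection in the values of myelin and of these genes was not tested. In bulk tissue, more cells of a type and more RNA per cell cannot be told apart, for this and every list below.

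Of 3 libraries of SS mice that drank minocycline without RSD, from the same number series, 1 was left out because its counts are identical to those of a library labelled AA + RSD + minocycline. The other 2 gave 4070 and 4140 CPM for Mbp and 78.5 and 83.9 CPM for Mog. These values lie at or above the upper part of the treated range, and Pdgfra was 72 and 79 CPM. These 2 libraries had 4.31 and 4.36% of reads outside genes, as low as treated mice 9 to 12, and no test was made with them.

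Genes of neurons in formation gave a mixed picture. Of 17 genes of neurogenesis, 7 were higher at p under 0.05 and 2 lower (median 0.32). Eomes, the transcription factor of intermediate progenitors, was 0.0263, 0.215, 0.0506, 0.362 and 0.0744 CPM in the untreated mice and 0.0142 to 3.57 CPM (median 1.19) in the treated mice (log2 fold change 3.11, SE 0.813, adjusted p = 0.151). These are very low levels, and 11 of 12 treated mice were above the untreated median. The proliferation genes Top2a (0.422 to 0.675 CPM untreated, 0.341 to 1.54 CPM treated, log2 fold change 0.79) and Mki67 (0.469 to 0.752 and 0.54 to 1.49 CPM, 0.63) were higher in 10 and 11 of 12 treated mice than the untreated median. Their log2 fold changes without treated mice 9 to 12 were 0.59 (p = 0.0654) and 0.4 (p = 0.112), and 2 of the 17 members were higher and 0 lower at p under 0.05.

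Tubb3, the neuronal tubulin of young and mature neurons, was 209, 189, 216, 236 and 193 CPM in the untreated mice and 224 to 311 CPM (median 257) in the treated mice (log2 fold change 0.32, SE 0.0808, adjusted p = 0.134). Igfbpl1 (1.71, p = 0.024), Draxin (0.69, p = 0.0255) and Stmn1 (0.42, p = 0.0387), which are all made by immature neurons, were the other higher members. Dcx, the usual marker of newborn neurons, was 22, 17.1, 25.8, 13.6 and 25.2 CPM untreated and 7.79 to 30.9 CPM (median 18.9) treated. Its log2 fold change was -0.08 (SE 0.283), and 0.23 (p = 0.233) without treated mice 9 to 12, which held 4 of the lowest Dcx values (7.79 to 12.2 CPM). Sox11 (-0.28, p = 0.0477) and Prox1 (-0.29, p = 0.0477), transcription factors of immature neurons and of granule cells, were the lower members, and untreated mouse 2 held the highest value of both (15.2 and 155 CPM). Without untreated mice 1 and 2, 4 members were higher and 0 lower at p under 0.05, and Prox1 had a log2 fold change of -0.07.

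Interneuron genes were on the higher side. Of 12 members, 5 were higher at p under 0.05 and 0 lower, and all 12 had a log2 fold change above 0 (median 0.3). Pvalb, the calcium-binding protein of fast-spiking interneurons, was 18.7, 15.2, 18.7, 22.4 and 23.2 CPM in the untreated mice and 17.4 to 56.9 CPM (median 27.7) in the treated mice (log2 fold change 0.69, p = 0.00903). Slc32a1, the vesicular transporter of GABA, was 54.2, 54.1, 56.5, 56.2 and 46.9 CPM untreated and 50.4 to 87.5 CPM (median 65.1) treated (0.34, p = 0.0101). The neuropeptide genes Npy (0.65), Sst (0.59) and Cort (0.74) were the other members at p under 0.05. Npy and Sst were highest in treated mice 9 and 12 (77.4 and 84.6 CPM for Npy, 335 and 370 CPM for Sst), and without treated mice 9 to 12 their log2 fold changes were 0.29 and 0.25. Without both sets 1 of 12 members was at p under 0.05 (median 0.18), and Pvalb had 0.38 (p = 0.212).

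Genes of meninges and fibroblasts were lower in treated mice. Of 12 members, 8 were lower at p under 0.05 and 0 higher (median -0.66, beside 4.26% of all genes lower). Slc6a13, a transporter of GABA and taurine made by leptomeningeal cells (chr6:121277186-121316121, plus strand), was 4.4, 4.4, 21.2, 10 and 17.1 CPM in the untreated mice and 3.28 to 8.35 CPM (median 5.21) in the treated mice (log2 fold change -1.09, SE 0.292, adjusted p = 0.171). Fmod, fibromodulin, a collagen-binding proteoglycan (chr1:133964992-133976015, plus strand), was 2.71, 3.25, 37.5, 10.8 and 17.5 CPM untreated and 2.23 to 9.07 CPM (median 4.6) treated (log2 fold change -1.48, SE 0.427, adjusted p = 0.227). In both genes untreated mice 3 to 5 lay above all treated mice, whereas untreated mice 1 and 2 lay among or below them.

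In Col3a1 and Col1a2, genes of fibrillar collagen, untreated mouse 3 was the highest of all libraries. Col3a1 was 1.42, 1.49, 5.39, 3.47 and 4.25 CPM in the untreated mice and 0.547 to 3.43 CPM (median 1.19) in the treated mice (log2 fold change -1.32, SE 0.362, adjusted p = 0.187). Col1a2 was 5.87, 7.27, 24.3, 10.3 and 13.3 CPM untreated and 2.78 to 14.3 CPM (median 6.28) treated (-0.82, p = 0.0141), with untreated mice 4 and 5 below treated mouse 8. Ogn, Slc6a20a, Col1a1 and Bgn, further genes of matrix and leptomeninges, had log2 fold changes of -0.72, -0.66, -0.65 and -0.33. Ranbp3l, which was the nuclear-encoded gene among the 5 lower genes of smallest p with a proper symbol, was 5.47, 7.13, 13.4, 8.01 and 11.7 CPM untreated and 4.03 to 6.9 CPM (median 4.91) treated (log2 fold change -0.83, SE 0.177, adjusted p = 0.0594). All 12 treated mice were below the untreated median of Slc6a13, Col3a1, Fmod, Ogn and Ranbp3l.

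**Figure D3:**
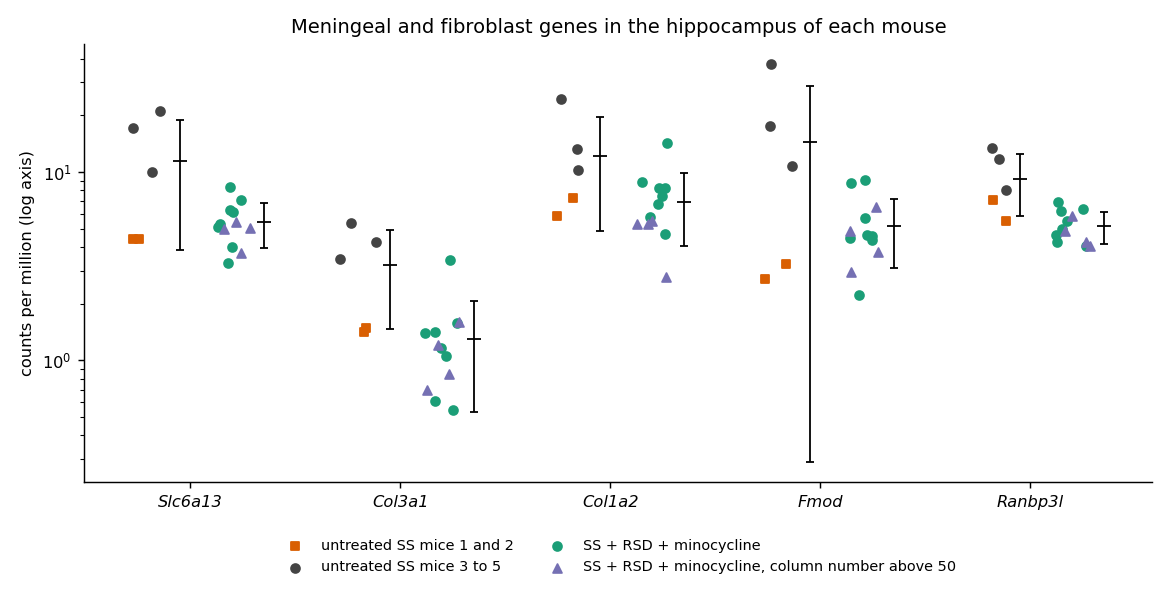
CPM (log axis) of Slc6a13, Col3a1, Col1a2, Fmod and Ranbp3l in each hippocampus library. Symbols mark untreated mice 1 and 2 (orange squares), untreated mice 3 to 5 (grey circles), treated mice 1 to 8 (green circles) and treated mice 9 to 12 (purple triangles), with bars for mean ± SD. The lower bar of untreated Fmod is cut short because its SD equals its mean. Slc6a13 of untreated mice 3 to 5 lies between 10 and 21.2 CPM and that of untreated mice 1 and 2 at 4.4 CPM, inside the treated range.

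Without untreated mice 1 and 2, 5 of 19482 genes (0.0257%) passed the adjusted threshold, and all 5 fell in treated mice. They were Slc6a13 (log2 fold change -1.57, SE 0.223, adjusted p = 0.0267), Fmod (-2.09, SE 0.328, adjusted p = 0.0333), Ranbp3l (-1.1, SE 0.174, adjusted p = 0.0333), Wnt6 and Il13ra2. Wnt6 and Il13ra2 passed the filter on low counts only when the smaller group was these 3 untreated mice, so the filter favours genes that are high in them, and nothing is read from their calls. This choice of libraries was made after the data were seen, and it leaves 3 untreated mice. Without treated mice 9 to 12 as well, 0 genes passed (smallest adjusted p 0.0732), and the log2 fold changes of Slc6a13, Fmod and Ranbp3l were -1.5, -2.01 and -1.05. Of the list, 8 members were lower at p under 0.05 without untreated mice 1 and 2 (median -0.97), 4 without treated mice 9 to 12 (median -0.47) and 8 without both (median -0.75).

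The summed level of the meninges list was 132 to 237 CPM in the treated mice, 167 to 196 CPM in untreated mice 1 and 2 and 208 to 360 CPM in untreated mice 3 to 5. The membrane around the hippocampus can be taken or left at dissection, and how much of it each sample held was not measured. In the 2 libraries of SS mice with minocycline alone, Slc6a13 was 9.5 and 11.8 CPM and Fmod 15.5 and 14.7 CPM, above all treated mice, without a test. In the cortex of the same groups Slc6a13 was 7.92 ± 4.26 CPM (SD, n = 12) treated and 7.31 ± 2.84 CPM (SD, n = 6) untreated, and 0 of 12 members of the list were at p under 0.05 (median -0.02). Without 3 treated cortex libraries that were low in neocortex genes, described with the immediate early genes, 3 of 12 were lower and 0 higher (median -0.33), with Slc6a13 at -0.3 (p = 0.23).

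Genes of pericytes and smooth muscle, the contractile cells of vessel walls, were on the lower side, with 0 of 11 higher and 3 lower at p under 0.05 (median -0.22). Cnn1, calponin of smooth muscle, was 0.158, 0.184, 1.05, 0.703 and 0.669 CPM untreated and 0.195 to 0.451 CPM (median 0.348) treated (log2 fold change -0.75, p = 0.0377), and 35.1% of its exonic bases overlap Elof1 on the opposite strand. Vtn, vitronectin, made in the brain by pericytes, was 65.4, 70.1, 101, 99.4 and 97.7 CPM untreated and 54.4 to 91.8 CPM (median 68.4) treated (-0.29, p = 0.0476). Anpep, the pericyte aminopeptidase CD13, had a log2 fold change of -0.46. In Cnn1 and Vtn, untreated mice 3 to 5 lay above all treated mice and untreated mice 1 and 2 among or below them. Without untreated mice 1 and 2, 4 members were lower (median -0.39), with Cnn1 at -1.29 and Vtn at -0.48, and without treated mice 9 to 12 it was 1 member (median -0.21). None of 22 genes of endothelium and barrier was at p under 0.05 (median -0.03).

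Immediate early genes, which neurons switch on within minutes of activity, had small log2 fold changes in the hippocampus. Of 19 members, 4 were higher at p under 0.05 and 1 lower (median 0.1). Egr1 was 78.9, 74.5, 71.4, 76.8 and 80.9 CPM in the untreated mice and 76.3 to 169 CPM (median 99.5) in the treated mice (log2 fold change 0.44, SE 0.158, p = 0.0123). Arc, a protein of active synapses, was 65.1, 105, 65.7, 63.9 and 79.4 CPM untreated and 62.7 to 137 CPM (median 100) treated (0.38, SE 0.156, p = 0.0247), where untreated mouse 2 lay above the treated median. Junb (0.37) and Ier2 (0.39) were the other higher members. Fosb was the lower one, at 6.16, 9.28, 6.9, 8.91 and 6.47 CPM untreated and 5.16 to 7.59 CPM (median 6.26) treated (-0.27, SE 0.118, p = 0.0357). Without both sets of libraries that stood apart, 4 members were higher and 0 lower (median 0.13).

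In the cortex of the same groups the list was on the lower side, in libraries that were not alike in tissue. The cortex libraries of treated mice 1, 11 and 12 were low in the neocortex list (mean log2 level -1.21 to -0.87 relative to the untreated mean, other cortex libraries -0.32 to 0.25), with Tbr1, a transcription factor of cortical neurons, at 49.9 to 65.3 CPM (others 117 to 156 CPM). The same 3 were at 1.23 to 2.8 in the striatum list (others -0.62 to 1.92) and at -0.91 to -0.55 in the immediate early genes (other treated -0.5 to 0.27, untreated -0.57 to 0.68), so these 3 libraries stand apart from their cortex label, and the main values are given with and without them. The part of the tissue taken in the cortex values was not tested. With all libraries 0 of 19 were higher and 6 lower at p under 0.05 (median -0.47), where 0 of 17837 genes (0%) passed the adjusted threshold in edgeR, DESeq2 called 9 and the likelihood-ratio test 1 (Ttr), and 1303 genes (7.31%) were at p under 0.05 (4.36% higher, 2.95% lower). Egr1 was 210 ± 66.7 CPM (SD, n = 12) in treated and 299 ± 114 CPM (SD, n = 6) in untreated cortex, a log2 fold change of -0.51 (SE 0.229). Fosb of the cortex was 10.9 ± 1.64 CPM (SD, n = 12) treated against 18.1 ± 7.79 CPM (SD, n = 6) untreated (-0.73, SE 0.17). Without the 3 libraries 0 of 19 members were higher and 5 lower (median -0.32), where 0 of 17590 genes (0%) passed and 893 (5.08%) were at p under 0.05 (2.5% higher, 2.58% lower). Egr1 then had -0.33 (p = 0.103) and Fosb -0.69 (p = 0.00128).

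The difference between tissues was tested within mice, with limma on the difference of log2 CPM of hippocampus and cortex in the 17 mice with both. No gene passed (0 of 19491, 0%), with 1191 (6.11%) at p under 0.05 (2.45% higher, 3.66% lower) and a smallest adjusted p of 0.814. Of the immediate early genes, 7 were higher in this difference at p under 0.05 and 0 lower (median 0.53). Egr1 had 0.9 (SE 0.294, p = 0.00705) and Arc 1.04 (SE 0.37, p = 0.0119) on the log2 scale. Untreated cortex was spread widely in both genes. Arc was 440 CPM in the cortex of untreated mouse 2, 101 to 243 CPM in the other untreated cortex libraries and 44.4 to 283 CPM in the treated ones. Egr1 was 418 and 447 CPM in untreated mice 2 and 4, 178 to 289 CPM in the other untreated and 104 to 318 CPM in the treated cortex. Vgf and Bdnf are activity-regulated genes of a secreted neuropeptide precursor and a neurotrophin. At p under 0.05, Vgf was higher in the hippocampus and lower in the cortex, and Bdnf was lower in the cortex alone. Vgf was 113, 121, 111, 126 and 114 CPM in untreated hippocampus and 107 to 172 CPM (median 147) in treated hippocampus (log2 fold change 0.31, p = 0.0045), with -0.3 (p = 0.0415) in the cortex and 0.66 (p = 0.00204) for the difference. Bdnf had 0.19 (p = 0.298) in the hippocampus, -0.48 (p = 0.00817) in the cortex and 0.61 (p = 0.013) for the difference, and its hippocampal value was -0.07 without treated mice 9 to 12. Without the 3 mice whose cortex was low in neocortex genes, 0 of 19270 genes (0%) passed and 933 (4.84%) were at p under 0.05 (2.24% higher, 2.61% lower). Of the immediate early genes 3 were then higher and 0 lower (median 0.33), with Egr1 at 0.68 (p = 0.0255) and Arc at 0.64 (p = 0.0133), and Vgf had 0.58 (p = 0.000391) and Bdnf 0.47 (p = 0.0173).

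**Figure D4:**
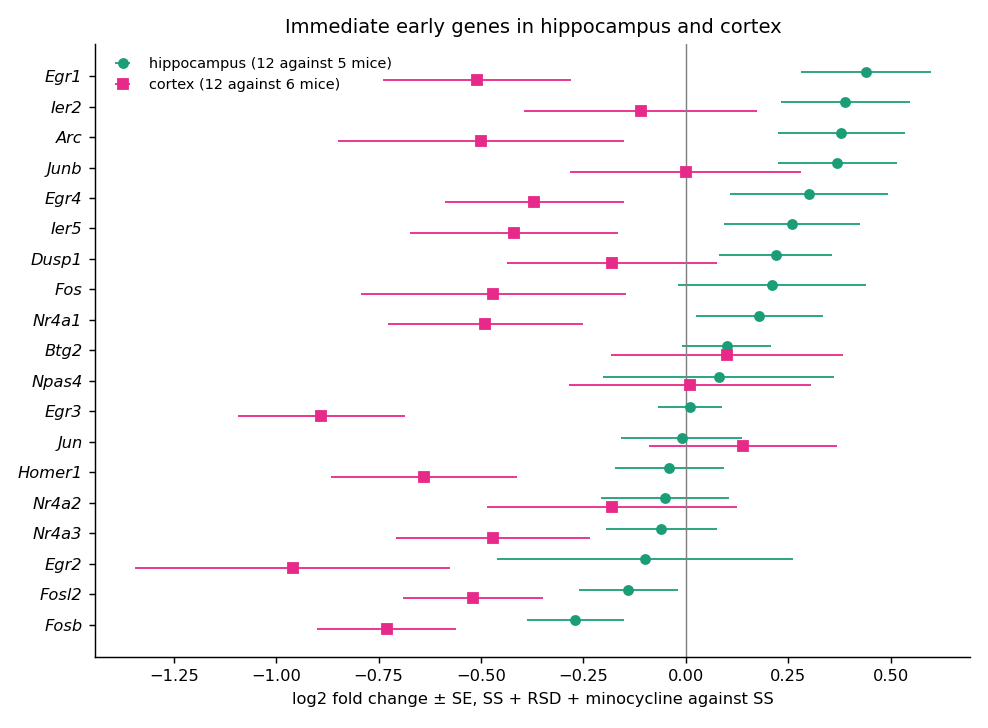
Log2 fold change ± standard error of the 19 immediate early genes in the hippocampus (12 against 5 libraries) and in the cortex (12 against 6 libraries, those of treated mice 1, 11 and 12 included). Egr1 lies at 0.44 in the hippocampus and at -0.51 in the cortex, and the medians over the list are 0.1 and -0.47.

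Some genes of the ATF4 response, by which cells answer amino acid shortage and mitochondrial stress, were on the higher side. Of 20 members tested, 6 were higher at p under 0.05 and 0 lower (median 0.15). Chac1, which degrades glutathione, was 7, 4.94, 5.37, 4.86 and 6.07 CPM in the untreated mice and 5.89 to 9.66 CPM (median 7.39) in the treated mice (log2 fold change 0.4, SE 0.122, adjusted p = 0.271), and all 12 treated mice were above the untreated median. The transcription factors Atf5 (0.34, p = 0.00658) and Atf4 (0.32, p = 0.0119), the serine synthesis enzyme Psat1 (0.34, p = 0.0108), the folate enzyme Mthfd2 (0.23) and the amino acid transporter subunit Slc3a2 (0.18) were the others. Without treated mice 9 to 12, 3 members were higher and 1 lower, with a median of 0.07 and Chac1 at 0.38 (p = 0.0097). The mean log2 level of the list relative to the untreated mean was 0.22 in these 4 libraries and 0.04 in the other 8 treated ones.

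Microglial genes gave few values at p under 0.05. None of 18 genes of homeostatic microglia was at p under 0.05 (median 0.19). Of 14 activation genes tested, Cd68, a lysosomal membrane protein of phagocytes (log2 fold change 0.32, p = 0.0285), and Ctsb, the protease cathepsin B (0.27, p = 0.0158), were higher and Spp1, osteopontin (-0.6, p = 0.0329), lower. Cd68 was 5.45, 7.63, 7.83, 6.71 and 6.5 CPM untreated and 6.73 to 12.3 CPM (median 8.32) treated, with overlap. Spp1 was 2.92, 2.52, 10, 4.41 and 7.82 CPM untreated and 2.88 to 6.46 CPM (median 3.26) treated, so that untreated mice 3 and 5 stood above all treated mice, and without untreated mice 1 and 2 its log2 fold change was -1.02. Cd68 had 0.17 (p = 0.13) without treated mice 9 to 12.

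The microglial values moved with treated mice 9 to 12. The summed level of the homeostatic list was 719 to 920 CPM in these 4 libraries, 471 to 600 CPM in the other 8 treated and 507 to 617 CPM in the untreated libraries. The activation list gave 3030 to 3470, 1720 to 2260 and 1730 to 2450 CPM in the same order. Without these 4 libraries the median log2 fold change of homeostatic microglia was -0.05 and 0 of 18 members were at p under 0.05, and that of activation genes was 0.03.

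Genes of ribosomal and respiratory proteins followed the same 4 libraries. Genes of cytosolic ribosomal proteins had a median log2 fold change of 0.34 (7 higher and 3 lower at p under 0.05 of 81), nuclear-encoded complex I subunits 0.33 (7 higher, 0 lower of 36) and mitochondrial ribosomal proteins 0.21 (5 higher, 0 lower of 77). Without treated mice 9 to 12 these medians were -0.04, 0 and 0.01. The summed level of cytosolic ribosomal protein genes was 14800 to 23900 CPM in these 4 libraries, 9410 to 11300 CPM in the other treated and 9510 to 13400 CPM in the untreated libraries. Long RNAs kept in the nucleus went the other way, with a mean log2 level of -1.99 to -1.67 in these 4 libraries and -0.12 to 0.38 in all others. What set the 4 libraries apart was not tested.

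**Figure D5:**
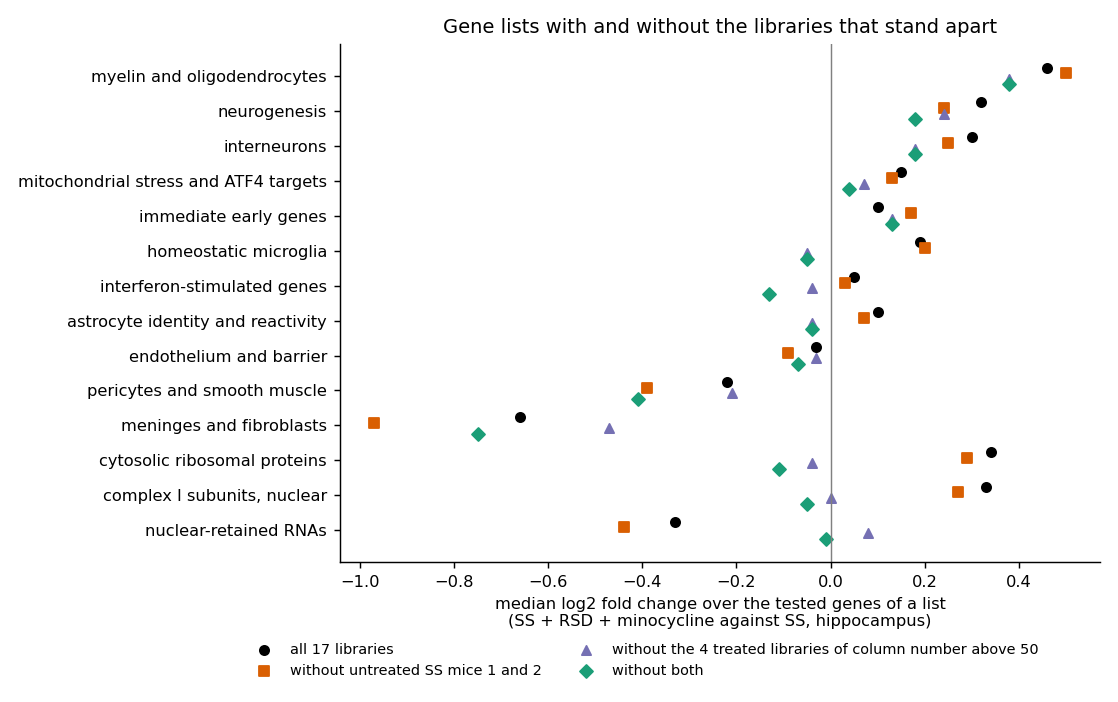
Median log2 fold change, treated against untreated hippocampus, of 14 gene lists in 4 sets of libraries, which are all 17, those without untreated mice 1 and 2, those without treated mice 9 to 12, and those without both. Myelin lies between 0.38 and 0.5 in every set and meninges between -0.97 and -0.47, while cytosolic ribosomal proteins lie at 0.34 with all libraries and at -0.04 without treated mice 9 to 12.

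Other immune genes gave few values at p under 0.05. Of 12 cytokine and mediator genes tested (18 listed), Il33 and Nfkbia were higher at p under 0.05 and 0 lower. Il33, an alarmin that oligodendrocytes and astrocytes hold in their nuclei, was 41.9, 43.1, 41.1, 39.2 and 55.1 CPM in the untreated mice and 44 to 87.5 CPM (median 57.5) in the treated mice (log2 fold change 0.47, SE 0.146, adjusted p = 0.303). All 12 treated mice were above its untreated median. Nfkbia, the inhibitor of NF-kappa B, was 19 to 23.9 CPM untreated and 17.7 to 40.2 CPM treated (0.32, p = 0.0477). None of 7 MHC class II genes, 11 genes of MHC class I presentation, 18 interferon-stimulated genes, 10 lymphocyte genes tested or 4 neutrophil granule genes tested was at p under 0.05. The neutrophil list holds 12 genes and the lymphocyte list 14, and the others were too low to be tested.

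Astrocyte genes, glucocorticoid targets and stress lists gave few values at p under 0.05. None of 14 astrocyte genes tested was, and Gfap, the filament protein of astrocytes, was 234, 394, 309, 349 and 303 CPM untreated and 198 to 499 CPM (median 340) treated (log2 fold change 0.15, SE 0.191). Of 17 glucocorticoid receptors and targets, the metallothioneins Mt1 (0.52, p = 0.0165) and Mt2 (0.53, p = 0.0313) were higher and 0 lower. Mt1 was 160, 150, 225, 232 and 142 CPM untreated and 150 to 350 CPM (median 278) treated, and without untreated mice 1 and 2 its value was 0.39 (p = 0.134). Mt1 had 0.32 and Mt2 0.22 without treated mice 9 to 12, and without both sets 0.18 and 0.05. Fkbp5, a standard target of the glucocorticoid receptor, was 71 to 82.7 CPM untreated and 54.6 to 93.4 CPM treated (-0.12, SE 0.115). None of 14 heat shock genes, 14 hypoxia genes, 15 red cell genes tested and 21 cholesterol genes was at p under 0.05. Of 14 NRF2 targets only Gstm1 (0.31) was, of 17 genes of heme and iron Fth1 (0.48) and Trf, and of 30 sphingolipid genes S1pr5 (0.42) and Degs1 (0.24) higher and Sphk1 (-0.9) lower. The mean log2 level of the astrocyte list was 0.27 to 0.49 in treated mice 9 to 12 and -0.11 to 0.24 in the other treated mice. In the same order it was 0.35 to 0.6 and -0.24 to 0.07 for heat shock genes, and 0.16 to 0.33 and -0.09 to 0.07 for NRF2 targets. For heme and iron it was 0.08 to 0.23 and -0.11 to 0.04.

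Of 22 tested genes of a list drawn from part of the study's text (23 listed, with the sirtuin family it speaks of spelled out), Sirt2 and Htr7 were higher at p under 0.05 and 0 lower (median 0.03). The list leaves out lipid and immune genes that the study names. Of those, Sphk1, Smpd1, Ormdl2 and Ormdl3 belong to the sphingolipid list above and Cx3cr1 to the list of homeostatic microglia. Elovl4, Slc1a4, St3gal2, St3gal3, Plpp3, Cd38 and Tlr2 are in none of the lists and are not reported here. Sirt2, a deacetylase that is abundant in oligodendrocytes, was 122, 132, 125, 125 and 114 CPM in the untreated mice and 106 to 184 CPM (median 145) in the treated mice (log2 fold change 0.24, SE 0.099, p = 0.0258), and it was the one member of 7 sirtuins at that p. Htr7, a serotonin receptor, was 8.2 to 10.5 CPM untreated and 7.9 to 13.6 CPM treated (0.24, p = 0.0405), and the one of 15 tested receptors and oxidases of serotonin and dopamine. Without untreated mice 1 and 2 their log2 fold changes were 0.27 (p = 0.0535) and 0.22 (p = 0.138). Without the 4 treated libraries that stood apart they were 0.17 (p = 0.0758) and 0.23 (p = 0.0751). Without both sets they were 0.19 (p = 0.11) and 0.2 (p = 0.21), so neither gene stayed at p under 0.05. The mean log2 level of the sirtuin list was -0.53 to -0.32 in these 4 treated libraries. It was -0.08 to 0.07 in the other 8 treated and -0.08 to 0.09 in the untreated libraries. With all libraries, Vgf was the one of 9 tested neurotrophins and receptors at p under 0.05. Grik2, a kainate receptor subunit of the list of 31 glutamate receptors and scaffolds, was lower (-0.22, p = 0.0182). Of 18 clock genes tested, Cry1 (0.28) was higher and Tef lower. Tef, an output factor of the clock, was 404, 428, 438, 452 and 434 CPM untreated and 326 to 413 CPM (median 368) treated (-0.23, SE 0.0595, adjusted p = 0.15), with only untreated mouse 1 inside the treated range.

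Markers of the regions differed at p under 0.05 in single genes. They were Prox1 of 8 dentate gyrus genes (lower), Pou3f1 of 5 CA1 genes (0.34) and Ppp1r1b of 9 striatal genes (0.29), and none of 8 CA3 and CA2, 9 thalamic, 8 neocortical or 4 tested hypothalamic genes. Treated mouse 2 had the lowest mean log2 level of the dentate gyrus list (-0.85, other libraries -0.41 to 0.35). It also had 24% of its reads outside genes (10.7% or less in the others) and the lowest Prox1, Mbp and Eomes of the libraries compared. The part of dissection in these values was not tested. In the cortex libraries, 8 of the 9 striatal genes were higher in treated mice at p under 0.05 (median 1.33), 7 of 9 without the 3 libraries low in neocortex genes (median 0.73), and how much striatum these samples held was not measured. Of 14 choroid plexus genes, 1 was higher at p under 0.05 (Enpp2, 0.89, p = 0.0396) with a median of 1.25, which rested on treated mice 5 and 8. Ttr, transthyretin, the main secreted protein of choroid plexus, was 5.19, 150, 16, 59.1 and 81.4 CPM untreated and 8.72 to 2030 CPM (median 20) treated, and its log2 fold change of 2.15 had an SE of 1.45.

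In 9 genes the groups did not overlap, 7 higher in treated mice (0.0369% of genes tested) and 2 lower (0.0105%). Kcnip1, which modulates A-type potassium channels (chr11:33576285-33943152, minus strand), was 16, 13.8, 18.1, 16.4 and 18.6 CPM in the untreated mice and 19.1 to 25.9 CPM (median 20.7) in the treated mice (log2 fold change 0.37, SE 0.0913, adjusted p = 0.128). Nppc, the precursor of C-type natriuretic peptide, was 2.08, 1.5, 2.21, 1.98 and 2.28 CPM untreated and 2.38 to 4.54 CPM (median 3.17) treated (0.65, SE 0.164, adjusted p = 0.134). Cplx1, complexin 1, which binds the SNARE complex of synaptic vesicles, was 417, 452, 469, 453 and 445 CPM untreated and 478 to 809 CPM (median 548) treated (0.34, SE 0.103, adjusted p = 0.271).

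Diras2, a small GTPase, was 295, 308, 294, 242 and 295 CPM untreated and 316 to 383 CPM (median 335) treated (0.24, adjusted p = 0.199). Lrrc59, a protein of the endoplasmic reticulum (0.22), Zfp553 (0.32) and Psme3, an activator subunit of the proteasome (0.16), were the other higher genes. The lower ones were Slc44a5, a choline transporter-like protein, at 50.4, 65, 52.8, 58.8 and 58.6 CPM untreated and 25 to 50 CPM (median 42.1) treated (-0.44, SE 0.112, adjusted p = 0.141), and Slc4a9 (-1.07), which was under 1 CPM in every library. With both sets of libraries left out, the log2 fold changes were 0.19 for Kcnip1, 0.53 for Nppc, 0.28 for Diras2, 0.19 for Lrrc59, 0.31 for Zfp553 and -0.41 for Slc44a5, all at p under 0.05. Cplx1 had 0.3 (p = 0.059) and Psme3 0.09 (p = 0.148), and Slc4a9 was too low to be tested. These genes were chosen for groups that do not overlap, and fewer of the same libraries keep them apart. The p without both sets are therefore no further support.

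Among the higher genes of smallest p were Arsg, a lysosomal sulfatase, Rab3b, a GTPase of synaptic vesicles, Ctxn3, a cortexin, and Pcp4l1, a relative of the calmodulin regulator Pcp4. Arsg was 22.2, 20.4, 22.1, 18.3 and 20.9 CPM untreated and 20.7 to 30.5 CPM (median 28.1) treated (0.38, SE 0.0874, adjusted p = 0.0908). Rab3b was 30.3, 32, 29.2, 37.3 and 43.1 CPM untreated and 35.4 to 59 CPM (median 51.5) treated (0.51, SE 0.121, adjusted p = 0.0997). Ctxn3 (1.09 to 2.59 CPM untreated, 1.75 to 6.24 CPM treated) and Pcp4l1 (32 to 43.6 and 41.2 to 76.2 CPM) had log2 fold changes of 1.11 and 0.53. All 12 treated mice were above the untreated median of Rab3b, Ctxn3 and Pcp4l1, and 11 of 12 for Arsg. With both sets of libraries left out the 4 log2 fold changes were 0.39, 0.32, 0.96 and 0.38, in the order Arsg, Rab3b, Ctxn3, Pcp4l1.

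The change in SS mice was set against that in AA mice of the same number series (15 AA + RSD + minocycline and 8 AA libraries) by the interaction of genotype and RSD with minocycline in edgeR. No gene passed (0 of 19487, 0%, smallest adjusted p 0.412), DESeq2 called 1, an lncRNA without a symbol, and 596 (3.06%) were at p under 0.05 (1.99% higher in SS, 1.07% lower). Without untreated SS mice 1 and 2, 0 of 19778 genes passed (smallest adjusted p 0.146). Then 930 were at p under 0.05, 664 higher in SS and 266 lower. The 2 of 8 untreated AA libraries that were high in Gm13340 stayed in this fit, so such libraries were left out on the SS side only. Nothing is read from the 664 and 266. No fit of this difference left out treated SS mice 9 to 12, and the values that follow are with all libraries. Within the AA mice 25 of 17843 genes passed (0.14%), and no comparison of that count with the 0 in SS mice was made. Myelin genes had a median difference of 0.32, with 3 of 16 higher at p under 0.05 and 0 lower. Mbp had a log2 fold change of 0.17 in AA mice and a difference of 0.5 (p = 0.0515), and Cldn11 of -0.03 and 0.48 (p = 0.0412). Opalin was higher in AA mice too (0.53, p = 0.00882 in edgeR), with a difference of 0.19 (p = 0.546). Meninges genes had a median difference of -0.44, with 4 of 12 lower, Slc6a13 (-1.05, p = 0.0119), Col3a1 (-1.26, p = 0.0107), Fmod (-1.6, p = 0.0125) and Bgn (-0.41, p = 0.045). The log2 fold changes of Slc6a13 and Fmod in AA mice were -0.03 and 0.12. Ranbp3l had a difference of -0.79 (p = 0.00274) and -0.04 in AA mice. Immediate early genes had 2 of 19 higher, Egr1 (0.55, p = 0.0101) and Arc (0.55, p = 0.0277). Npy (log2 fold change 0.47), Mki67 (0.61) and Tef (-0.16) were at p under 0.05 within the AA mice too. Their differences were 0.17, 0.02 and -0.07.

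For mt-Nd4l and Gm13340 the AA mice gave log2 fold changes of -2.6 and -3.43, both past the adjusted threshold there (adjusted p = 0.034 and adjusted p = 0.0282, edgeR), with 2 of the 8 untreated AA libraries high and 0 of 15 treated ones, as described above. The difference between genotypes was -0.43 (p = 0.612) and -0.47 (p = 0.638). In 1 library of either AA group Alas2 reached the level of the SS mice, and without both of them 0 genes passed as well.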

How the data were processed

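Bulk RNA of hippocampus and cortex was sequenced from poly(A) libraries made with a directional NEBNext kit and read from one end (85 bases). STAR placed the reads on the mouse genome build GRCm39, and the counts the authors deposited are raw reads per gene of a GENCODE annotation, with no scaling. The STAR version, the annotation release and the strand setting are not given in the sources used here, so overlapping genes on opposite strands may share reads. Both tables hold 55416 genes, of which 5111 have no symbol and 54749 matched the annotation by ID. The lines that name no gene were left out of library sizes and tests. In the 17 libraries these are unmapped reads (3.07 to 29.1%), reads with several places (3.2 to 9.51%), reads outside genes (4.56 to 24%) and ambiguous reads. Columns with no sample of their own in the labels were not used (2 of hippocampus, 1 of cortex).

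Each library is a separate mouse, and groups were taken from the labels. Replicate pairs differed by more than sampling noise (chi-square per degree of freedom 11.9 or more). A pair of libraries in either tissue had identical counts, and none of them is among the libraries compared. Genes were kept by filterByExpr (minimum count 10, minimum total 15), scaled by the trimmed mean of M values and tested with edgeR 4.0.16 in R 4.3.3, all with Benjamini-Hochberg adjustment over all genes tested. The difference between tissues was tested with limma 3.58.1 on log2 CPM (prior count 2). DESeq2 1.42.0, the likelihood-ratio test, other scaling and filters, leaving out libraries and added terms were tried as alternatives. All tests were first run on simulated data with known changes. Those data held no libraries that stand apart, so the check does not cover such libraries. Copies of mitochondrial sequence were found with blastn 2.17.0 in GRCm39, and gene positions come from the GRCm39 annotation. The libraries compared and the 44 gene lists were chosen with earlier results of these data known. The genes named are the 5 higher and 5 lower of smallest p with a mean log2 CPM of 1 or more and a proper symbol, the members of the lists at p under 0.05 and genes named by the study, and some genes that meet this rule are not reported here. Genes whose groups do not overlap, Gm13340, Wnt6, Il13ra2 and members named for comparison were chosen after their values were seen.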

Additional observations from a re-analysis of the deposited data

Results flagged for a closer look

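In 6 of the 76 genes examined, 1 of the 5 untreated libraries stood far from the other 4, and chance alone sets about 1 in 20 groups apart in this way. Untreated mouse 5 was low in Slc32a1, the vesicular GABA transporter, at 46.9 CPM (next library 54.1 CPM), and in Fkbp5, the glucocorticoid receptor target, at 71 CPM (next 80.4 CPM), and high in the alarmin Il33 at 55.1 CPM (next 43.1 CPM). Untreated mouse 4 was low in Diras2, a small GTPase, at 242 CPM (next 294 CPM), and high in Igfbpl1, a gene of immature neurons, at 1.19 CPM (next 0.355 CPM). Untreated mouse 3 was high in Psat1, the serine synthesis enzyme, at 108 CPM (next 102 CPM).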

How the results depend on the processing

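The comparison of treated with untreated SS hippocampus called 0 genes in edgeR's quasi-likelihood test, and this count depended on the settings. DESeq2 called 171 (33 higher, 138 lower), the likelihood-ratio test 174 (15 and 159), the test without a filter on low counts 442 (2 and 440), and the test with the share of reads outside genes as a term 1 (Gm26793, -3.13). At an unadjusted p under 0.05 there were 1571. Leaving out 1 library at a time gave 0 to 170 calls, with 127 without untreated mouse 3, 124 without mouse 4, 170 without mouse 5 and 1 (Gm26793) without treated mouse 2. Of the lower calls without mouse 3, 4 or 5, 106 of 127, 103 of 123 and 147 of 168 were processed pseudogenes, and 107, 106 and 125 were among the 141 genes high in untreated mice 1 and 2. Without these 2 mice 5 genes passed. Another scaling, the mice of the higher of the 2 blocks of mouse numbers alone, a term for that block and the remaining settings gave 0. The difference between SS and AA mice gave 1 in DESeq2 and 0 under the other settings tried, which include 5 fits without 1 untreated SS library, and 596 at an unadjusted p under 0.05. The cortex gave 9 in DESeq2 (3 higher, 6 lower), 1 in the likelihood-ratio test (Ttr, -5.2), 1303 unadjusted and 0 in the other settings, and the difference between tissues 1191 unadjusted and 0 in the others. These comparisons were also made without untreated libraries one at a time and without the 3 treated cortex libraries low in neocortex genes, with 0 each.

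Of the settings tried on the 76 named genes, 2167 values kept their direction and side of the threshold, 79 passed it in the same direction and 31 had the other sign. Without untreated mice 1 and 2, mt-Nd4l was 0.19, mt-Co3 0.05, mt-Atp6 0.11, mt-Co2 0.23 and Gm13340 0.36. Without treated mice 9 to 12 as well, mt-Nd4l was 0.27, mt-Atp6 0.02, mt-Atp8 0.21, Gm13340 0.26, Pdgfra -0.03, Cspg4 0.14, Dcx 0.18 and Gfap -0.11. Without treated mice 9 to 12 alone, Pdgfra was -0.05, Dcx 0.23, Bdnf -0.07 and Gfap -0.09, and with a term for them Pdgfra was -0.06, Dcx 0.23, Bdnf -0.07 and Gfap -0.09. Pdgfra was -0.02 with the number block as a term, -0.02 in the mice of the higher block, where Dcx was 0.2, and -0.01 with protein-coding genes alone. Leaving out 1 library gave -0.06 to 0.05 for Pdgfra and -0.19 to 0.02 for Dcx. The causes of these changes were not tested. Leaving out untreated mice 1 and 2, treated mice 9 to 12 together with them, or genes that code no protein, the term for treated mice 9 to 12, and leaving out the 3 cortex libraries, were chosen after seeing the data. No paired analysis of treated against untreated mice was possible because the numbers in the labels are those of single mice, each of which is in one group. With 5 untreated mice, log2 differences near the median standard error of 0.163 were not detectable in single genes.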
